A study of Mus musculus with 4 samples.

Results

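Satb1 was described here as a locus occupied by Sp6 in the developing molar. The zinc-finger factor Sp6 (epiprofin) had been precipitated with an in-house antibody from dental epithelium and dental mesenchyme. The tissues were separated from 30 newborn molars (C57BL/6 mice, postnatal day 1), and the labels name no transgene or treatment. The 4 groups were Sp6 in epithelium, Sp6 in mesenchyme, input in epithelium and input in mesenchyme, each with 1 library, so there was no replicate error and no test between groups was possible. Members were the intervals (regions with a local excess of fragments, as called by the authors) listed for Satb1 in the Sp6 gene tables, together with every Sp6 interval within 200 kb of the outermost of them. This gave 4 of 3811 intervals in epithelium, 3 of them listed for Satb1, and 11 of 11436 in mesenchyme, 10 of them listed for Satb1. Satb1 was selected on its listed intervals and their peak values in these same libraries, so both are given as descriptions. Only binding data were used, so the tissue labels could not be checked against marker expression.

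SATB1 is a nuclear protein that binds AT-rich DNA prone to unpairing and anchors it, folding chromatin into loops and recruiting remodelling and histone-modifying complexes. It is best known from thymocytes, where it organises gene loci during T cell development. In skin it is a target of p63 and takes part in keratinocyte differentiation, and in the tooth it has been studied in presecretory ameloblasts, the epithelial cells that go on to secrete enamel matrix. Sp6 belongs to the SP/KLF family, whose members bind GC boxes and CACCC boxes.

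The listed start of Satb1 lay at position 51971958 of chromosome 17 (build mm9), and the gene runs towards lower coordinates. No interval of either tissue touched that position. The interval nearest to it ended 3.89 kb inside the gene in epithelium and 3.90 kb inside in mesenchyme. RefSeq, on build GRCm38.p6, gives 5 windows around Satb1 starts, each with 250 bases before and 50 after a start. The outermost and the next are shown because they hold the 2 kinds of SP/KLF box. Capitals mark GGGCGG and CACCC on either strand, and the second window lies 643 bases inside the first. The windows not shown lie 6702, 21106 and 21236 bases inside the first. Distances of intervals are given from the listed start only, so an interval away from it may lie near another start.
Satb1 start 1 (chr17:51833241-51833540, minus strand): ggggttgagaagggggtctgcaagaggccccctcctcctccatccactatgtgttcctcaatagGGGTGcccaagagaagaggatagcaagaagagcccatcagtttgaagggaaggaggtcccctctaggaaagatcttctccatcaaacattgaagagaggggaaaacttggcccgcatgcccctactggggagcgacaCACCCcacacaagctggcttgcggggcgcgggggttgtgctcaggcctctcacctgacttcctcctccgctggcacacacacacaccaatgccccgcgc
Satb1 start 2 (chr17:51832598-51832897, minus strand): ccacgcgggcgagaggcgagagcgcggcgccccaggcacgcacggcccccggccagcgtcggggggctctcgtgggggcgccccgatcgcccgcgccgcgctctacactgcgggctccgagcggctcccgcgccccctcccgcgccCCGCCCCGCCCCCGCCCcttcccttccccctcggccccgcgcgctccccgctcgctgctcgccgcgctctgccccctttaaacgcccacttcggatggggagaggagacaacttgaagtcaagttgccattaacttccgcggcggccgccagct
The second window had a GC content of 76.7%, higher than 97.3% of all 32851 RefSeq start windows. It held 3 GGGCGG matches, all on the reverse strand and side by side, and it was the only one of the 5 Satb1 windows with this motif, which 35.7% of all windows held. CACCC was found in the other 4 Satb1 windows, and in 57.5% of all windows. The windows 21106 and 21236 bases inside the first overlap, and the only CACCC match of the latter is also in the former. The longer SP/KLF forms GGGTGTGG and GGGCGTGG were in 0 of the 5, against 3.56% and 5.33% of all windows. The AT-rich strings CAATTA and AATAATAA were also in 0 of the 5, against 8.0% and 1.89% of all windows. A match describes the letters only, and these windows were not placed on mm9, so their distance to the intervals was not measured.

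The strongest Sp6 interval at Satb1 was at the same place in both tissues. The 3 epithelium intervals spanned 79.2 kb (chr17:51888900-51968071), with 61.1 kb free of intervals between the first and the next from the start. The 10 mesenchyme intervals spanned 94.5 kb (chr17:51873577-51968060), with no gap above 31.7 kb. Strength was read from 2 deposited measures of fragment density, the peak value (the highest bin of an interval) and the average value (the mean over its bins). Whether libraries were scaled to each other is not stated and read totals are not given, so a ratio between tissues compares deposited values only. In bulk chromatin, occupancy in a smaller share of cells and weaker occupancy in each cell cannot be told apart.

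The strongest interval lay deep inside the gene, 66.1 kb from the listed start. Its peak value was 60 in epithelium (chr17:51905423-51906383) and 168 in mesenchyme (chr17:51905145-51906842). The peak centres of both tissues fell on the same position, 0 bp apart. It was also long, at 961 bp in epithelium, longer than 98.4% of that list, and 1698 bp in mesenchyme, longer than 99.3%. Its peak value was 2.74 times its average value in epithelium and 4.04 times in mesenchyme. Among annotated intervals (those in a gene table) it ranked 201 of 2381 in epithelium, above 91.0% of them, and 101 of 7211 in mesenchyme, above 98.6%.

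**Figure D1:**
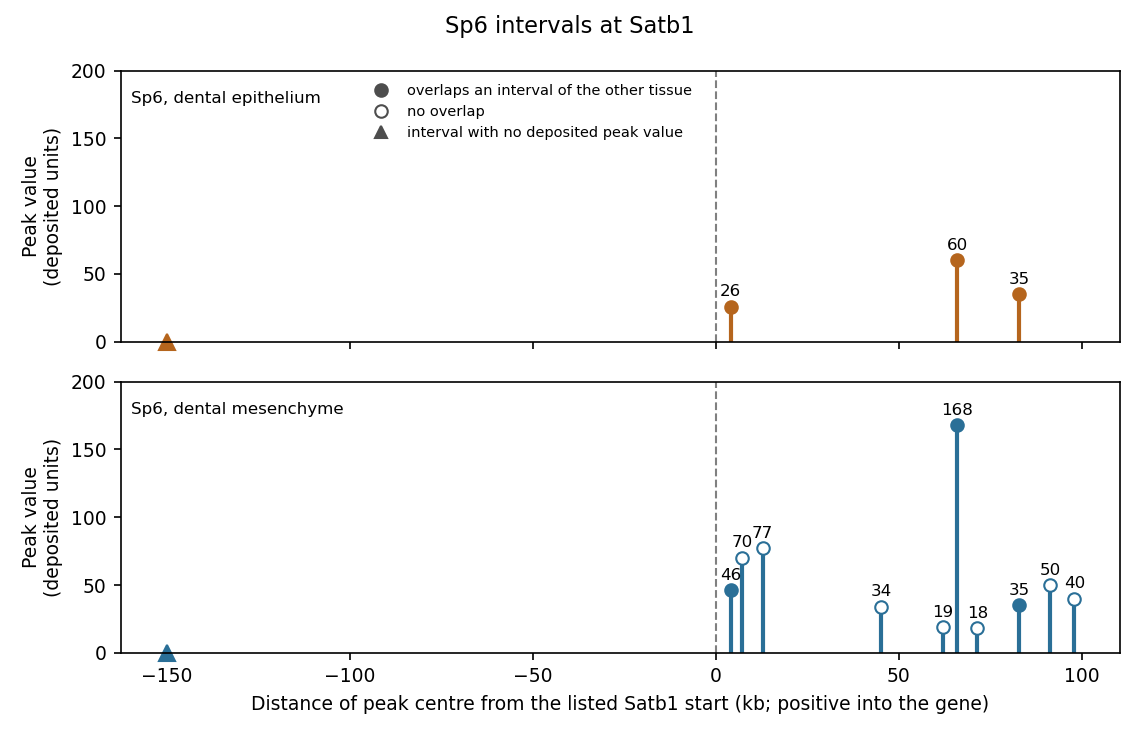
Deposited peak value (vertical axis) of each Sp6 interval listed for Satb1 against the distance of its peak centre from the listed start in kb, with epithelium above and mesenchyme below. Filled points overlap an interval of the other tissue, open points do not, and triangles mark the upstream interval that has no deposited peak value. The tallest point of each tissue, 60 in epithelium and 168 in mesenchyme, stands at 66.1 kb.

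Near the 5′ end, both tissues shared an interval 4.2 kb inside the gene. Its peak value was 26 in epithelium (chr17:51967484-51968071, 4182 bp from the start) and 46 in mesenchyme (chr17:51967353-51968060, 4246 bp from the start). Mesenchyme had 2 further intervals close by that epithelium lacked. They lay 7.22 kb and 12.9 kb from the start, with peak values of 70 (chr17:51964378-51965232) and 77 (chr17:51958719-51959488). The 3 mesenchyme intervals were 2.12 kb and 4.89 kb apart, and both intervals without a counterpart had higher peak values than the shared one. The intervals at 4.2 and 7.22 kb are also listed as upstream of EG628919, a name that matched no RefSeq gene.

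Towards the 3′ end, a shared interval lay 83.0 kb from the start. Its peak value was 35 in epithelium (chr17:51888900-51889337, 2 local peaks) and 35 in mesenchyme (chr17:51888804-51889470, 1 local peak). Because the mesenchyme list has higher values, this stood above 69.3% of the epithelium list and 50.7% of the mesenchyme list. Its average value was 20.2 in epithelium and 17.8 in mesenchyme, the only Satb1 pair with epithelium higher.

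The other mesenchyme intervals of Satb1 had no epithelium counterpart. At 91.4 kb inside the gene the peak value was 50 (chr17:51880291-51880705), in an interval of only 415 bp, shorter than most of that list (5.58% were shorter). Past the 3′ end, at 98.0 kb from the start, it was 40 (chr17:51873577-51874260), and inside the gene at 45.3 kb it was 34 (chr17:51926371-51927043). The 2 weakest flanked the strongest interval. They had peak values of 19 at 62.0 kb and 18 at 71.5 kb, with gaps of 2.83 kb and 4.15 kb to it, and stood above only 6.92% and 4.80% of the mesenchyme list. Satb1 therefore held intervals from near the bottom to near the top of the mesenchyme list.

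**Figure D2:**
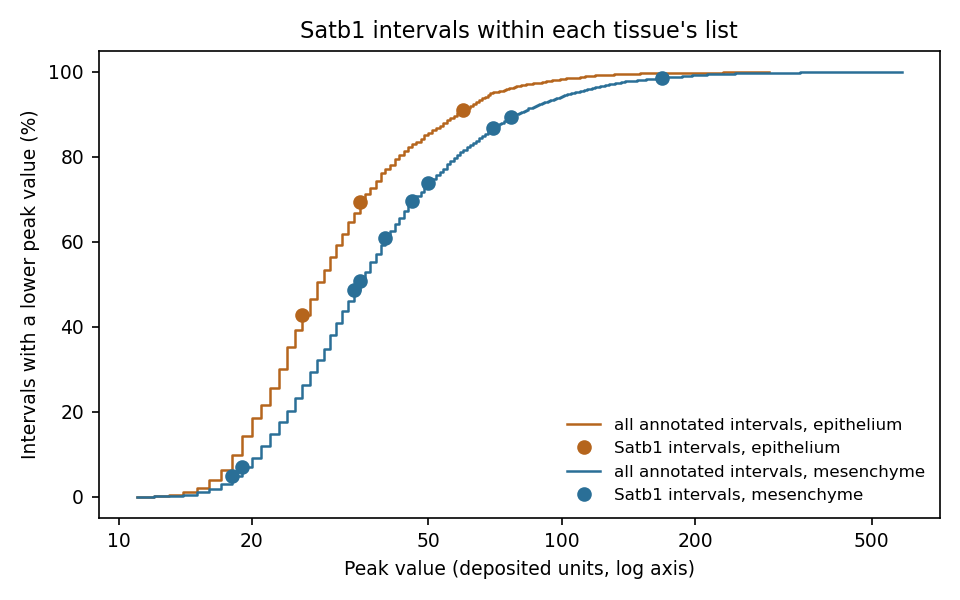
Share of annotated intervals with a lower peak value (vertical axis, %) against deposited peak value (log axis), as a line for all intervals of each tissue and points for those of Satb1. The 3 epithelium points lie between 42.8% and 91.0%, and the 10 mesenchyme points between 4.80% and 98.6%.

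On the peak value, the 3 shared Satb1 intervals differed from one another in how epithelium compared with mesenchyme. The log2 ratio of epithelium to mesenchyme was −1.49 at 66.1 kb, −0.82 at 4.2 kb and 0.00 at 83.0 kb. Over all 2083 pairs of overlapping annotated intervals the median was −0.97 (interquartile range −1.35 to −0.58). The ratio at 66.1 kb was lower than in 82.3% of pairs, that at 4.2 kb was near the middle, with 60.2% of pairs lower, and that at 83.0 kb was higher than in 93.9%. Of the 3 Satb1 pairs, 1 had an epithelium peak value at most 1/2 of the mesenchyme one, against 49.0% of all pairs, and 1 had an epithelium value at or above it, against 6.10%. On average values the order of the 3 was the same, at −0.92, −0.56 and 0.18, where the median of all pairs was −0.58. Their peak centres lay 0, 64 and 48 bp apart, and centres were within 64 bp in 92.5% of all pairs.

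**Figure D3:**
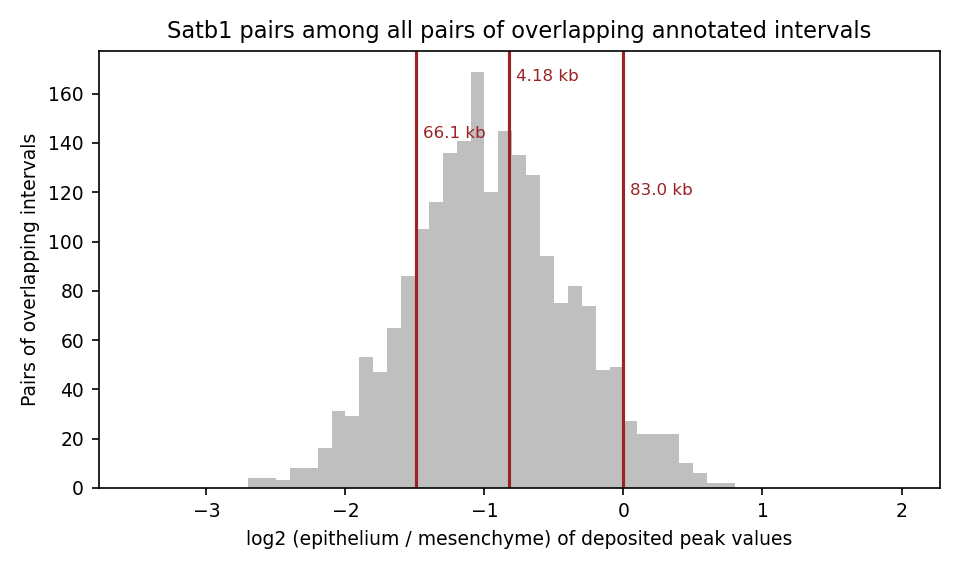
Number of pairs of overlapping annotated intervals (vertical axis) by log2 ratio of epithelium to mesenchyme peak value, with a red line for each Satb1 pair, named by its distance from the listed start. The Satb1 lines stand at −1.49, −0.82 and 0.00, across much of the range of all pairs.

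Every epithelium interval of the locus had a mesenchyme counterpart. In the window of 494 kb (chr17:51673577-52168071), 4 of 4 epithelium intervals overlapped a mesenchyme interval by at least 1 bp (exact 95% interval 39.8 to 100%, counting error only), against 87.9% of all epithelium intervals. In mesenchyme 4 of 11 overlapped an epithelium interval (36.4%, 10.9 to 69.2%), against 29.2% of all mesenchyme intervals. Both shares are near their background. The fourth shared interval lay upstream of the gene, with its centre 150 kb from the start. It measured 688 bp in epithelium (chr17:52121888-52122575) and 761 bp in mesenchyme (chr17:52121882-52122642). It is outside the 10 kb that the tables cover upstream of a gene, so it has no peak value and no listed gene.

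Whether a Satb1 interval of mesenchyme had a counterpart was set beside the mesenchyme intervals of like peak value. The intervals of 77 and 70 lacked one, where most of like value had one. Those of 46 and 35 had one, where most did not. How often intervals of the whole list differ from the majority in this way was not measured. Of mesenchyme intervals with a peak value within 5 of 77, 69.8% overlapped an epithelium interval (169 of 242, Wilson 95% interval 63.8 to 75.3%), and within 5 of 70 it was 63.7% (211 of 331, 58.4 to 68.7%). In the pairs of those bands the epithelium peak value had a median of 33 (15 to 98) and 30 (15 to 101). At Satb1 neither had one, and the nearest epithelium interval was 7995 bp from the interval of 77 and 2251 bp from that of 70. For the interval of 168 the share was 19 of 19, and the epithelium values there ranged from 28 to 113 with a median of 64, beside the 60 at Satb1. For the weakest, of 19 and 18, which had no counterpart, it was 5.58% and 5.16%. For the shared intervals of 46 and 35 it was 32.8% (309 of 941) and 20.1% (357 of 1780). For those of 50, 40 and 34, which were not shared, it was 40.2%, 25.3% and 18.3%.

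**Figure D4:**
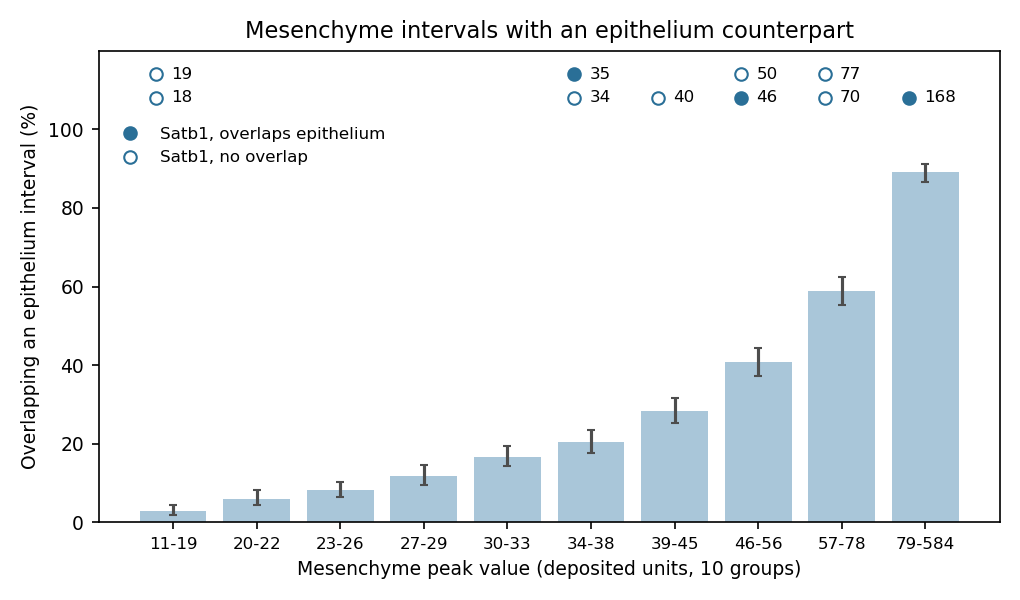
Share of mesenchyme intervals that overlap an epithelium interval (vertical axis, %, with Wilson 95% intervals) in 10 groups of similar size by mesenchyme peak value. Points above the bars are the 10 Satb1 intervals with their peak values, filled where they overlap epithelium. The values 70 and 77 are open and lie in the group of 57 to 78, where 58.9% overlapped.

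The mesenchyme intervals of Satb1 lay closer to one another than to the next interval on either side. In mesenchyme the gaps between the 10 Satb1 intervals ranged from 2.12 to 31.7 kb with a median of 6.03 kb, against a median of 85.1 kb between neighbouring intervals of the whole list. The longest inner gap lay between the 5′ intervals and that at 45.3 kb. The next mesenchyme interval was 154 kb away on the 5′ side, which is the upstream shared interval. On the 3′ side it was 211 kb away (chr17:51661861-51662350), just outside the 200 kb limit. Next outside on the 5′ side were a mesenchyme interval at 256 kb and an epithelium interval at 305 kb from the outermost Satb1 interval. On the 3′ side the next epithelium interval was 871 kb from it. How common flanking gaps of such lengths are in the whole lists was not measured.

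With windows of 494 kb laid end to end along the chromosomes, 2.94% held at least 4 epithelium intervals (155 of 5279, median 0) and 0.867% held at least 11 mesenchyme intervals (46 of 5306, median 1). The Satb1 window was centred on its own intervals and those windows were not, so the shares only set a scale. No input interval lay in the window, and the nearest was 11.7 Mb away. In the whole lists 0.341% of epithelium and 0.122% of mesenchyme intervals touched one of the 17 epithelium or 24 mesenchyme input intervals. None of the 3 epithelium and none of the 10 mesenchyme intervals of Satb1 lay on a CpG island, against 4.20% and 8.45% of annotated intervals that did.

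Satb1 held many mesenchyme intervals for its length. Its 3 epithelium intervals ranked 32 among 2239 listed genes, a number that 97 genes reached. Its 10 mesenchyme intervals ranked 12 among 5391, where the median was 1. All 11 genes with more were longer, from 234 kb (Tanc1, a synaptic scaffold gene) to 1106 kb (Auts2), whereas Satb1 measures 97.1 kb in RefSeq. Per 100 kb of gene length, the 9 mesenchyme intervals inside Satb1 came to 9.27. In epithelium the 3 inside came to 3.09 per 100 kb. Among protein-coding genes with at least 3 intervals inside, Satb1 ranked 15 of 76 in epithelium (median 1.32) and 18 of 482 in mesenchyme (median 1.89). Among the 137 with at least 5 mesenchyme intervals inside it ranked 3, behind Col1a1 (35.7) and Smad7 (21.0), so the rank depends on that minimum. By its highest peak value it ranked 223 of 2239 in epithelium and 119 of 5391 in mesenchyme.

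The mesenchyme list is the longer one, which bears on these numbers. Among the highest mesenchyme intervals, as many as the 2381 annotated in epithelium and ties at the lowest value of 43 (2473 in all), 5 of the 10 Satb1 intervals were left, and 2 of these 5 overlapped epithelium, against 58.9% of all those kept (1456 of 2473). By number Satb1 then ranked 5 among 2203 genes, a place it shared with others, since 16 genes had at least as many.

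**Figure D5:**
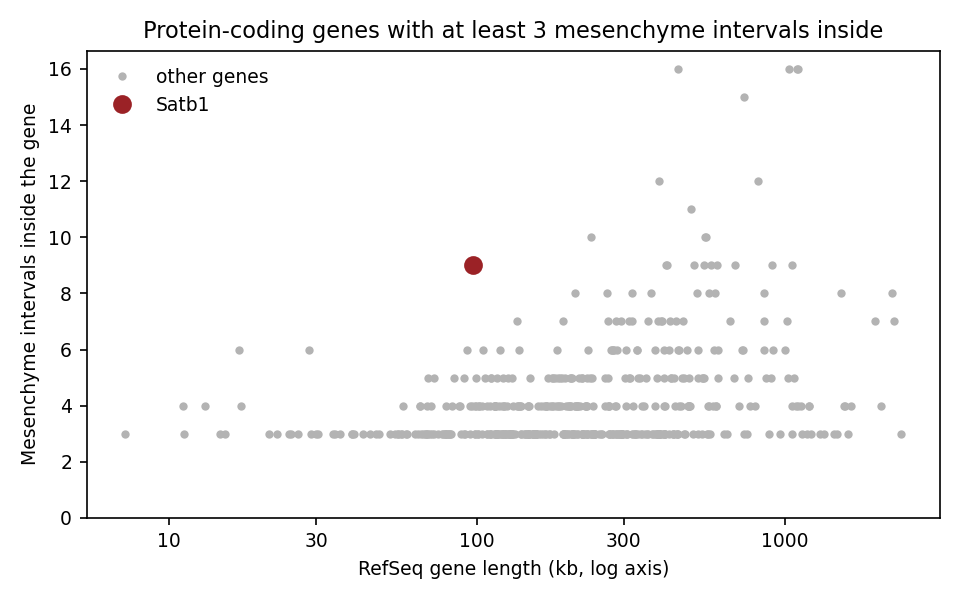
Number of mesenchyme intervals inside each gene (vertical axis) against RefSeq gene length (log axis, kb) for 482 protein-coding genes with at least 3 inside. Satb1 (red) has 9 in 97.1 kb, and genes with as many or more are longer.

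The genes most like Satb1 were found by the Euclidean distance over 4 measures, the log2 number of intervals and the log2 highest peak value in each tissue, among 2064 genes with an interval in both. Among the nearest, Lpar1 (listed as Edg2), a lysophosphatidic acid receptor, stood at a distance of 0.68, with 3 epithelium and 7 mesenchyme intervals and highest peak values of 75 in epithelium and 136 in mesenchyme. Celsr1, an adhesion receptor of planar cell polarity, stood at 0.70 with 3 epithelium and 7 mesenchyme intervals and highest peak values of 44 in epithelium and 152 in mesenchyme. Cux1 (listed as Cutl1), a homeobox transcription factor, Atxn1 and AJ237917, a name not matched to a RefSeq gene here, stood at 0.74 to 0.78. Of these, Lpar1 (119 kb) and Celsr1 (135 kb) are close to Satb1 in length.

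Other chromatin organisers, SATB1 partners and lineage regulators were read from 3 lists of 41 genes in all. Of 16 genes of the SATB family and of chromosome architecture, 4 had an interval in epithelium and 7 in mesenchyme, including Satb1 itself. The background over 21887 protein-coding genes was 8.81% in epithelium and 21.1% in mesenchyme. Without Satb1 the counts were 3 of 15 and 6 of 15. Genes differ in length, and no length match was made here.

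Lamin genes encode the filaments that line the nuclear envelope. About 9.2 kb upstream of its start, Lmnb1 reached 55 in epithelium and 112 in mesenchyme (peak values), and Lmna had 21 and 31 at 9.60 kb upstream. In mesenchyme alone, intervals were listed for the cohesin release factor gene Wapl (highest 41) and for Pds5a (31), which encodes a cohesin-associated protein. The same held for Hnrnpu (highest 24), a nuclear matrix protein gene. Its highest interval lay downstream of the gene, 17.9 kb from its start and on a CpG island. Of mesenchyme intervals with peak values of 39 to 45, 30 to 33 and 23 to 26, only 28.4%, 16.7% and 8.19% overlapped an epithelium interval. The remaining 9 genes, among them Ctcf and the cohesin subunit genes Rad21, Smc1a, Smc3, Stag1 and Stag2, had none listed in either tissue. Pds5a is listed under the older name 9030416H16Rik and Wapl as Wapal.

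Of 17 genes for partners of SATB1, 2 had an interval in epithelium and 4 in mesenchyme, close to the background shares. Ctnnb1, which encodes beta-catenin, and Xrcc5, a subunit of the Ku DNA repair complex, had one in both tissues. Xrcc5 had peak values of 18 in epithelium and 64 in mesenchyme at 86.6 kb inside the gene. Chd4, the remodelling ATPase of the NuRD complex (17), and Parp1, a poly(ADP-ribose) polymerase (30), had one in mesenchyme only. The Chd4 interval lay downstream of the gene, 35.2 kb from its start and on a CpG island. Of mesenchyme intervals with peak values of 11 to 19, where Chd4 falls, only 2.89% overlapped an epithelium interval. In the group of 30 to 33, where Parp1 falls, 16.7% did. The histone deacetylase genes Hdac1 and Hdac2 had none.

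Of 8 regulators of epithelial or lymphoid lineages and of their chromatin, 0 had an interval in epithelium and 3 in mesenchyme. Of all protein-coding genes, 8.81% had one in epithelium and 21.1% in mesenchyme, so 0 of 8 is close to the epithelium share. Trp63, the gene of p63, had 5 mesenchyme intervals, the highest with a peak value of 67 at 26.3 kb inside the gene (chr16:25827941-25828686) and another of 24 at 28 bp upstream of its start. No epithelium interval was listed for the gene. Kdm6b, a histone H3K27 demethylase gene, had a highest value of 41 downstream of the gene, and Bcl11b, a zinc-finger factor of T cells and ameloblasts, had 23 inside the gene. The difference between tissues was not tested. Over the 3 lists, 2 of 41 genes in epithelium and 8 in mesenchyme had an interval at or above the median peak value of their tissue's list, against 5.03% and 12.2% of all protein-coding genes. Within 5 kb of a listed start it was 2 in epithelium and 6 in mesenchyme, against 2.00% and 6.68% of all. All of these counts include Satb1, which was selected on its intervals in these data, so they are not set apart from that choice.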

How the data were processed

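ChIP-seq intervals of 4 libraries were read as deposited, per the labels 1 Sp6 and 1 input library from each tissue. The submitters' processing notes name the build mm9 and MACS 1.3.7.1, and aligner, thresholds and use of inputs are not given in the sources. The gene tables hold deposited signal (peak and average fragment density in bins of about 32 bp, scaling not stated), with counts of bins, local peaks and CpG islands, per the file headers. They cover 2381 of 3811 epithelium and 7211 of 11436 mesenchyme intervals. Depth is unknown. Starts are printed 1-based.

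Overlap meant at least 1 bp. Percentiles, ratios and shares were computed with Python 3.11.15, pandas 2.3.3 and SciPy 1.17.1, with exact or Wilson 95% intervals for counting error only. Overlap counting was tested on simulated data. Gene names were matched to RefSeq symbols and synonyms (GRCm38.p6), 89.3% in epithelium and 89.4% in mesenchyme, for names and lengths only. The promoter motif search replaced the planned search under intervals, as no mm9 sequence was used here.

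Members and lists were chosen with earlier results of these data known. Named genes are Satb1, those listed in its window, list members with an interval and genes among the 6 most alike, apart from some that are not reported here. Some other genes are named as having no interval or to set the rank by number and density, and these were chosen after their values were seen.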

Additional observations from a re-analysis of the deposited data

How the results depend on the processing

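Under the alternatives, 15 results stayed within 1.5 times their count or within the counting error of their share, and 11 moved. Both overlap rules tried beside 1 bp left 4 epithelium and 4 mesenchyme intervals shared. A limit of 500 kb gave 19 mesenchyme intervals, against 11 at 200 kb. At the strongest interval, average values gave a log2 ratio of epithelium to mesenchyme of −0.92, and peak values divided by each list's median gave −1.15, against −1.49. Its percentile in mesenchyme was 98.1 on average values, against 98.6. Among the 41 listed genes, 6 in epithelium and 14 in mesenchyme had an interval, and without Satb1 5 and 13 of 40 did. The shares of all protein-coding genes were 8.81% and 21.1%. At or above the median peak value 2 and 8 of the 41 did, against 5.03% and 12.2% of all protein-coding genes. Within 5 kb of a start 2 and 6 did, against 2.00% and 6.68%. The counts out of 41 include Satb1 itself in both tissues. By number of mesenchyme intervals Satb1 ranked 5 both at or above the median peak value and at equal list sizes, against 12, and at equal sizes 5 of its intervals were left, against 10. The alternatives at equal size, inside the gene, for the rank, and with outermost intervals taken within each tissue were chosen after seeing the data. No paired analysis was possible because each group has 1 library. Unknown depth limits any statement that an interval is absent from epithelium, and without replicates no difference between tissues could be tested.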
